A study of Mus musculus with 8 samples.

Results

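The miR-101 family was described in extracellular vesicles (EVs), the membrane-bound particles that cells release, from mouse skeletal muscle. Its members were chosen by name: every miR of the count table whose name holds miR-101a, miR-101b or miR-101c, which gave 5 of 1755 miRs. These were mmu-miR-101a-3p, mmu-miR-101b-3p, mmu-miR-101c, mmu-miR-101a-5p and mmu-miR-101b-5p. The family was selected with the measured OXI-EV and GLY-EV values of these libraries known, so the members' levels and fold changes are given as a description, with no test. All 5 passed the filter on low counts.

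The study sequenced the small RNA of EVs from 2 kinds of muscle, with 4 libraries in each group. OXI-EV came from oxidative muscle, the soleus with the red part of the gastrocnemius, and GLY-EV came from glycolytic muscle, the whole quadriceps. All donors were male C57BL/6J mice with no treatment named, bought at 10–12 weeks of age. The muscle was teased apart and kept in serum-free medium for 24 h, and EVs were taken from that medium by ultrafiltration and size exclusion chromatography. Whole muscle holds vessels, blood and nerve beside its fibers, so the EVs need not come from muscle fibers alone. Fewer EVs of a kind and less of a miR per EV cannot be told apart in such pooled vesicles.

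A miR is a short RNA that pairs with messenger RNAs, mainly through its seed at bases 2 to 8, and lowers their translation or stability. It is cut from a hairpin whose arms give a 5p and a 3p product, of which usually only 1 is kept in quantity. In the miR-101 family the kept product is that of the 3p arm. In human cancer cells miR-101 is known to repress EZH2, the enzyme that methylates histone H3 at lysine 27 to silence genes.

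The mature sequences are shown because the 3 miRs of the 3p arm are nearly the same molecule, which bears on every value below. They are from RefSeq (build GRCm38.p6, 5 of 5 members matched), written 5′ to 3′ with the seed in capitals.
mmu-miR-101a-3p: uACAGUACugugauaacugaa
mmu-miR-101b-3p: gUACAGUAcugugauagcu
mmu-miR-101c: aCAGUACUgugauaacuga
mmu-miR-101a-5p: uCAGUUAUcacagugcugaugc
mmu-miR-101b-5p: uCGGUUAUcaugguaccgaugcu

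All 19 bases of mmu-miR-101c lay within mmu-miR-101a-3p, starting 1 base later. mmu-miR-101b-3p started 1 base earlier than mmu-miR-101a-3p, and over the 18 bases they share it differed at 1, A16G, counted from the 5′ end of mmu-miR-101a-3p (its base first). The run of 14 bases common to all 3 was ACAGUACUGUGAUA, and among 1679 mature mouse miRs only these 3 held it. Because their starts are shifted against each other, their annotated seeds differ. Those of mmu-miR-101a-3p and mmu-miR-101c lie within this run, and that of mmu-miR-101b-3p begins 1 base before it. No other mature mouse miR had the seed of any member. At bases 2 to 7 mmu-miR-101a-3p matched mmu-miR-144-3p, an erythroid miR, and mmu-miR-101b-3p matched mmu-miR-582-5p. The 5p arms were less alike, with 17 of 22 aligned bases the same.

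The hairpins of miR-101a and miR-101b are shown with both arms in capitals, the 5p arm first.
Mir101a: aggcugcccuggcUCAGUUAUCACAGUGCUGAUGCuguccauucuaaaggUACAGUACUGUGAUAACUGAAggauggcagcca
Mir101b: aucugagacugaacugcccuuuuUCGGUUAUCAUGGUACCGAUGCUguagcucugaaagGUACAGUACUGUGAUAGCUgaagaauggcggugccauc

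Mir101a lies at chr4:101346945-101347027 on the minus strand (GRCm38), in an exon of the long noncoding RNA gene E130102H24Rik. Mir101b lies at chr19:29135279-29135375 on the plus strand, in an intron of Rcl1, a gene for a ribosomal RNA processing factor, on the same strand. Mir101c lies at chr9:3038669-3038743 on the minus strand and overlapped no other gene of GENCODE release 21. A read that covers only the bases shared by mmu-miR-101a-3p and mmu-miR-101c cannot be placed at either by its sequence, and how the counting treated such reads is not given in the sources used here.

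The libraries held 13532484 to 15324186 total reads in OXI-EV, against 13619667 to 17122593 in GLY-EV. Of these, 4151145 to 4867396 were mapped in OXI-EV, against 5179262 to 7197716 in GLY-EV. The miR counts, which appear to be molecules since 2.63 to 4.94 reads stood behind each, summed to 348730 to 572106 in OXI-EV, against 587068 to 1004011 in GLY-EV. Levels are counts per 1000000 mapped reads (CPM), and each log2 fold change is the OXI-EV value minus that of GLY-EV. GLY-EV replicate 4 had the fewest reads per count, 2.63, and CPM sets counts against reads.

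The most abundant member was mmu-miR-101a-3p. It had 106, 215, 236 and 300 counts in OXI-EV libraries 1 to 4, against 1168, 1315, 825 and 1705 counts in GLY-EV libraries 1 to 4. These were 24.4, 51.8, 50.5 and 61.6 CPM in OXI-EV, against 169, 183, 144.5 and 329 CPM in GLY-EV. Every OXI-EV library was below every GLY-EV library, with OXI-EV replicate 1 lowest and GLY-EV replicate 4 highest in CPM. Per 1000000 miR counts, GLY-EV replicate 4 (1698) and replicate 2 (1692) were nearly equal. The mean was 47.1 ± 15.9 CPM in OXI-EV, against 206.3 ± 83.4 CPM in GLY-EV (SD, n = 4 each), a log2 fold change of -2.13 (standard error 0.46). By count it ranked 39 to 73 among the 1755 miRs in OXI-EV, against 28 to 31 in GLY-EV.

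mmu-miR-101b-3p was close to it in every library. It had 98, 200, 162 and 268 counts in OXI-EV, against 922, 1268, 728 and 1587 in GLY-EV. In CPM these were 22.5, 48.2, 34.7 and 55.1 in OXI-EV, against 133.2, 176, 128 and 306 in GLY-EV. The groups again did not overlap, and the same libraries were lowest and highest in CPM. Per 1000000 miR counts, GLY-EV replicate 2 (1632) was above GLY-EV replicate 4 (1581). The mean was 40.1 ± 14.5 CPM in OXI-EV, against 186 ± 83.3 CPM in GLY-EV (SD, n = 4 each), a log2 fold change of -2.21 (standard error 0.47).

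mmu-miR-101c, the 3p product with the lowest level, had 26, 53, 57 and 60 counts in OXI-EV, against 247, 274, 159 and 395 in GLY-EV. In CPM these were 5.98, 12.8, 12.2 and 12.3 in OXI-EV, against 35.7, 38.1, 27.9 and 76.3 in GLY-EV. The groups did not overlap, and 3 of the 4 OXI-EV libraries lay close together with replicate 1 below them. The mean was 10.8 ± 3.24 CPM in OXI-EV, against 44.5 ± 21.6 CPM in GLY-EV (SD, n = 4 each), a log2 fold change of -2.04 (standard error 0.51).

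The 5p arms were scarce, with 6 to 68 counts a library. mmu-miR-101a-5p had 6, 27, 13 and 11 counts in OXI-EV, against 22, 36, 29 and 68 in GLY-EV. This was 3.23 ± 2.26 CPM in OXI-EV, against 6.60 ± 4.44 CPM in GLY-EV (SD, n = 4 each), a log2 fold change of -1.02 (standard error 0.61). The groups overlapped, with OXI-EV replicate 2 above 3 of the 4 GLY-EV libraries.

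mmu-miR-101b-5p had the opposite sign. It had 16, 23, 22 and 38 counts in OXI-EV, against 20, 12, 14 and 25 in GLY-EV. This was 5.43 ± 1.76 CPM in OXI-EV, against 2.96 ± 1.34 CPM in GLY-EV (SD, n = 4 each), a log2 fold change of 0.88 (standard error 0.49). The groups overlapped in CPM, where GLY-EV replicate 4 lay above OXI-EV replicates 1 and 3.

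**Figure D1:**
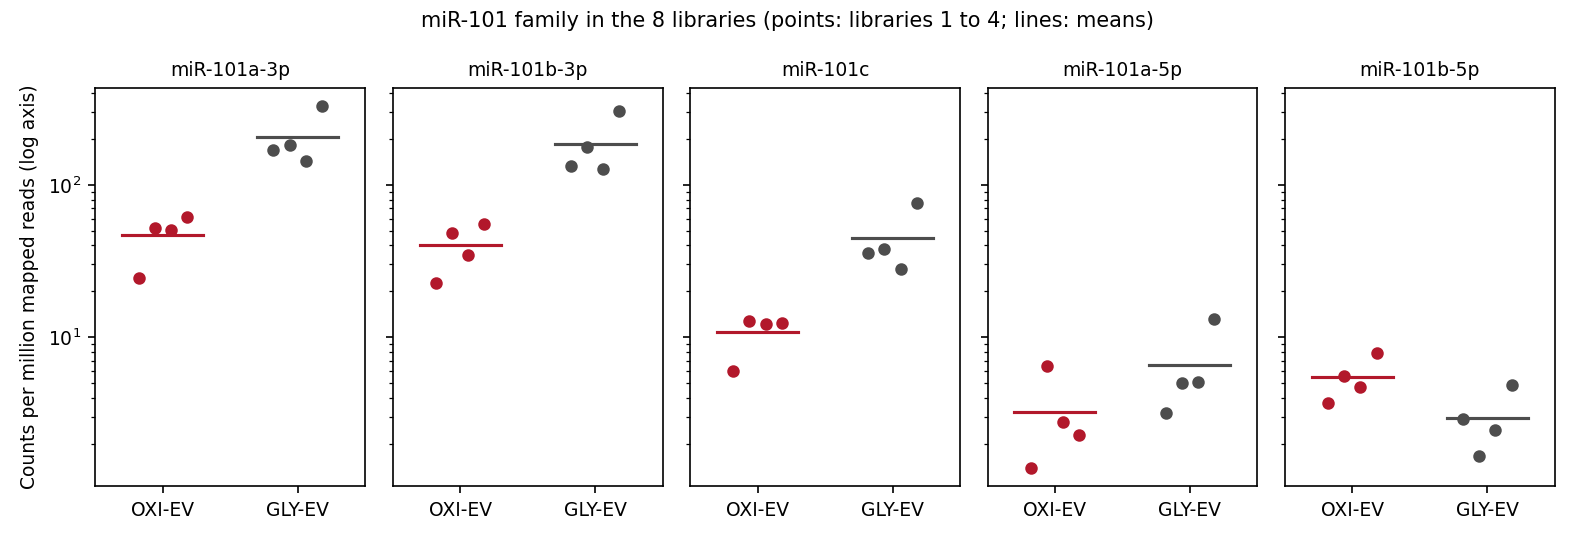
Level of each member in CPM (log axis), with OXI-EV libraries in red and GLY-EV libraries in gray, ordered 1 to 4 from left to right within a group. Lines are group means. For the 3 miRs of the 3p arm every OXI-EV point lies below every GLY-EV point, and for both 5p arms the groups overlap.

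In level the members ordered as mmu-miR-101a-3p, mmu-miR-101b-3p and mmu-miR-101c in each of the 8 libraries, followed by the 5p arms. The first and second of these differed by less than their SD in either group. mmu-miR-101c was below both beyond the SD of each. The 5p arms changed places between the groups, with mmu-miR-101b-5p above mmu-miR-101a-5p in 3 of 4 OXI-EV libraries and in 0 of 4 GLY-EV libraries.

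Summed over the 3p members the family had 98.01 ± 32.7 CPM in OXI-EV, against 437 ± 188 CPM in GLY-EV (SD, n = 4 each). As a share of all miR counts, which does not use the mapped reads, the 3p members came to 0.105% ± 0.0295 in OXI-EV, against 0.329% ± 0.0446 in GLY-EV (SD, n = 4 each).

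The fit over all 1569 miRs that reached 10 counts in 4 or more libraries puts these values beside the rest of the table. With edgeR's quasi-likelihood test at an adjusted p under 0.05, 2 of the 5 members, mmu-miR-101a-3p and mmu-miR-101b-3p, were past the threshold and lower in OXI-EV. So were 1.78% of all miRs tested, and 21.7% of the 129 with a mean count of at least 100. In CPM, 3 of the 5 members did not overlap and were lower in OXI-EV, as were 4.53% of all miRs tested and 44.2% of the 129. The contrast had served to choose the family, and nothing is read from these counts. Leaving out 1 library gave 0 members past the threshold without OXI-EV replicate 1, 2 or 3 or GLY-EV replicate 1 or 2, and 2 without each of the other 3. mmu-miR-101c was not past it in this fit. It was past it with TMM scaling, a scale that takes most miRs as equal, and also on the mapped-read scale with DESeq2's test or with only miRs of a mean count of at least 100 tested.

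The fold changes of the 3p members have to be set against a table that was split by abundance. The median log2 fold change was -2.04 over the 5 members and -2.13 over the 3 of the 3p arm. It was 0.48 over all 1569 miRs tested, -1.12 over the 129 with a mean count of at least 100 and 0.52 over the other 1440. With TMM scaling the same medians were 0.09, -1.62 and 0.14, and the 3p members stood at -2.62, -2.72 and -2.48 in the order mmu-miR-101a-3p, mmu-miR-101b-3p, mmu-miR-101c. Scaled to the total miR count, the median of all tested was 0.98 and the 3p members stood at -1.62, -1.71 and -1.48. Their sign was thus the same on all 3 scales, while the size moved with the scale. The 3p members lay between the 1.02 and 1.78 percentiles of all tested log2 fold changes, mmu-miR-101a-5p at 6.95 and mmu-miR-101b-5p at 72.1. In the fit of only miRs with a mean count of at least 100, the 3p members were less far out. There mmu-miR-101a-3p lay at the 13.8 percentile, mmu-miR-101b-3p at 10.8 and mmu-miR-101c at 17.7.

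**Figure D2:**
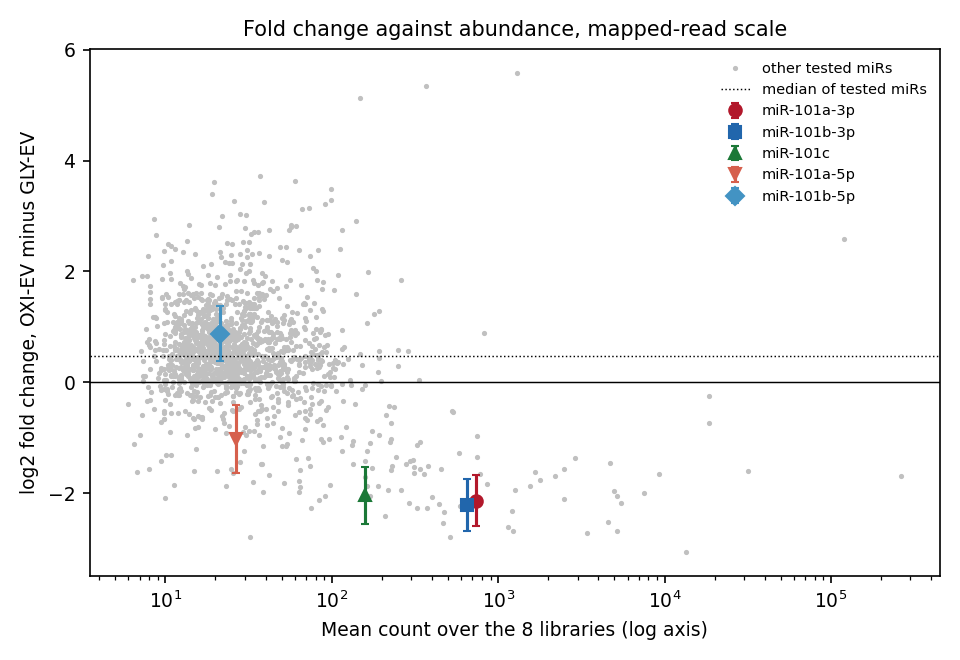
Log2 fold change, OXI-EV minus GLY-EV, against the mean count over the 8 libraries (log axis), for each tested miR (gray) and the 5 members (colored, bars are standard errors). The 3p members at -2.04 to -2.21 lie among other abundant miRs that are mostly below 0, whereas mmu-miR-101b-5p at 0.88 lies within the cloud of scarce miRs around the median of 0.48 (dotted line).

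Whether the near-identical members kept a constant proportion was asked within each library, where the library scale cancels. The ratio of mmu-miR-101b-3p to mmu-miR-101a-3p was 0.925, 0.930, 0.686 and 0.893 in OXI-EV, against 0.789, 0.964, 0.882 and 0.931 in GLY-EV. The groups overlapped, with a mean of 0.859 ± 0.116 in OXI-EV, against 0.892 ± 0.0760 in GLY-EV (SD, n = 4 each). Over the 8 libraries the SD of the log2 ratio was 0.163, against 0.119 from counting error alone. Within OXI-EV it was 0.210 against 0.156 from counting error, and within GLY-EV it was 0.126 against 0.0616. mmu-miR-101b-3p was 47.1% of the summed counts of this pair, and the exact 95% binomial interval held that share in 5 of 8 libraries. OXI-EV replicate 3, at 40.7% (interval 35.8 to 45.7%), was 1 of the 3 libraries whose interval did not. The others were GLY-EV replicate 1 (42.0 to 46.3%) and, narrowly, GLY-EV replicate 2 (47.14 to 51.04%, against a share of 47.13%). Intervals cover counting error only.

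The ratio of mmu-miR-101c to mmu-miR-101a-3p was 0.245, 0.247, 0.242 and 0.200 in OXI-EV, against 0.211, 0.208, 0.193 and 0.232 in GLY-EV. The groups overlapped, with a mean of 0.233 ± 0.0223 in OXI-EV, against 0.211 ± 0.0160 in GLY-EV (SD, n = 4 each). The SD of the log2 ratio over the 8 libraries was 0.141, against 0.186 from counting error, and the pooled share of 17.8% was within the interval of all 8 libraries. Within OXI-EV, where counts were low, the SD was 0.145 against 0.243 from counting error, and within GLY-EV it was 0.109 against 0.102. The ratio of mmu-miR-101c to mmu-miR-101b-3p was 0.224 to 0.352 in OXI-EV, against 0.216 to 0.268 in GLY-EV, and the interval held its pooled share of 19.5% in 7 of 8 libraries, OXI-EV replicate 3 being the exception. As the sequence of mmu-miR-101c lies whole within mmu-miR-101a-3p, the part that shared reads have in this ratio was not tested.

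A steady ratio to mmu-miR-101a-3p was not limited to the family. Among 128 other tested miRs with a mean count of at least 100, the SD of the log2 ratio to it over the 8 libraries had a median of 0.746 and a range of 0.145 to 4.17. mmu-miR-101c ranked 1 and mmu-miR-101b-3p ranked 4. The 5 nearest outside the family were miR-199a-3p/199b-3p (0.147), miR-16-5p (0.162), miR-181a-5p (0.190), miR-181b-5p (0.215) and miR-196b-5p (0.274). Their log2 fold changes were -2.09, -2.17, -2.25, -2.26 and -2.17 in that order, all near those of the 3p members, so the likeness partly restates the difference between groups. The order is a description over 8 libraries, and all ratios share mmu-miR-101a-3p as denominator.

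The arms of the same hairpin did not keep a constant ratio. mmu-miR-101b-5p stood to mmu-miR-101b-3p at 0.163, 0.115, 0.136 and 0.142 in OXI-EV, against 0.0217, 0.00946, 0.0192 and 0.0158 in GLY-EV. The groups did not overlap, with a mean of 0.139 ± 0.0199 in OXI-EV, against 0.0165 ± 0.00531 in GLY-EV (SD, n = 4 each). For miR-101a the ratio was 0.0685 ± 0.0391 in OXI-EV, against 0.0303 ± 0.00923 in GLY-EV (SD, n = 4 each), and the groups overlapped, OXI-EV replicate 4 at 0.0367 being below GLY-EV replicate 4 at 0.0399. Between the 5p arms themselves the ratio of mmu-miR-101b-5p to mmu-miR-101a-5p was 2.17 ± 1.13 in OXI-EV, against 0.523 ± 0.265 in GLY-EV (SD, n = 4 each), and OXI-EV replicate 2 at 0.852 was below GLY-EV replicate 1 at 0.909.

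**Figure D3:**
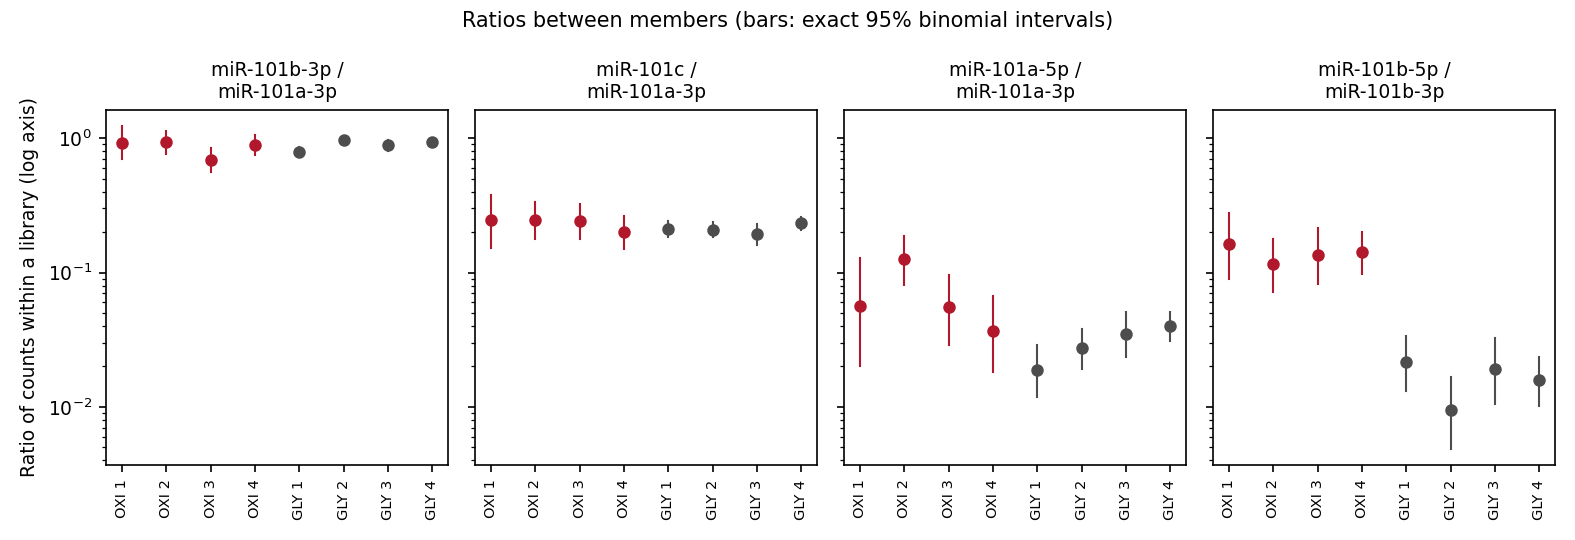
Ratio of counts between members within each library (log axis), OXI-EV in red and GLY-EV in gray, with exact 95% binomial intervals. The ratios of the other 3p members to mmu-miR-101a-3p overlap between groups (0.686 to 0.964 and 0.193 to 0.247 over the 8 libraries), whereas the ratio of the miR-101b arms is 0.115 to 0.163 in OXI-EV, against 0.00946 to 0.0217 in GLY-EV.

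A higher ratio of 5p to 3p in every OXI-EV library was found for 4.7% of the 511 hairpins with both arms tested, and for 18.4% of the 76 whose larger arm had a mean count of at least 100. Of those 76, miR-101b had the fifth largest log2 difference, 3.10, and miR-101a ranked 21 with 1.15, while the median was 0.20. The 76 mix hairpins whose larger arm is 3p, as in miR-101, with hairpins whose larger arm is 5p. Of the former, miR-133b stood at 4.03 and miR-29a at 2.83, but miR-206 at -1.33. Of the latter, miR-26b stood at -3.03, miR-99a at -2.81 and miR-30e at 0.62. The share and median were not taken for each kind apart. The minor arm of miR-101b was close to the middle of all miRs of a library. The count of mmu-miR-101b-5p was 0.920 to 1.46 times the library's median miR count in OXI-EV, against 0.875 to 0.923 times in GLY-EV. For the liver miR miR-122-5p, which muscle is not known to make in quantity, the same quotient was 0.385 to 1.28 in OXI-EV, against 0.750 to 1.08 in GLY-EV. mmu-miR-101b-5p was thus counted at the level of a miR from another tissue, and the part this has in the arm ratio was not tested. The 3p members stood well above that level, with mmu-miR-101a-3p at 8.15 to 11.8 times the library's median in OXI-EV, against 51.6 to 101.2 times in GLY-EV.

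Related miRs were few. mmu-miR-144-3p, which shares its first bases with mmu-miR-101a-3p, had 0, 73, 12 and 0 counts in OXI-EV, against 8, 6, 11 and 31 in GLY-EV, and the groups overlapped. Other miRs described as targeting Ezh2 mRNA, in any species, were taken as a list of 7, of which 6 were tested. The list was chosen with earlier results of these data known. Its counts and p-values are thus a description of these libraries and no independent test. Of these 2 were lower and 0 higher in OXI-EV past the threshold, where 1.78% of all miRs tested and 21.7% of those with a mean count of at least 100 were lower. Both called miRs were among the abundant ones. The median log2 fold change of the 6 was -0.97, against 0.48 for all miRs tested and -1.12 for those with a mean count of at least 100. By edgeR, miR-26a-5p fell by 2.68 ± 0.42 log2 units (standard error) with an adjusted p of 0.00489, and miR-26b-5p fell by 2.31 ± 0.54 with an adjusted p of 0.0483. The call of miR-26b-5p was kept in only 2 of the 8 fits without 1 library, those without OXI-EV replicate 4 or GLY-EV replicate 3, and its adjusted p ran from 0.00102 to 0.136 over 16 alternatives. miR-138-5p, which is abundant in nervous tissue, stood at 2.40 ± 0.73 log2 units with an edgeR adjusted p of 0.174, and its groups overlapped. It was past the threshold in 3 of 16 alternatives.

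Some lists of markers of other cell types were lower in OXI-EV, as the 3p members were, and others overlapped between groups. The summed endothelial miRs had 53.1 to 198 CPM in OXI-EV, against 201 to 772 in GLY-EV, and the erythroid miRs 44.8 to 120 CPM in OXI-EV, against 264 to 479 in GLY-EV. Smooth muscle miRs had 265 to 503 CPM in OXI-EV, against 782 to 2031 in GLY-EV. The sums of these 3 lists did not overlap between groups. For comparison, 44.2% of the 129 tested miRs with a mean count of at least 100 were lower in OXI-EV without overlap. The erythroid sum pooled miR-451a, miR-144-3p and miR-486a-5p. Over the 8 libraries miR-486a-5p had a mean count of 1150, against 17.6 for miR-144-3p. The erythroid sum was thus mostly miR-486a-5p, and whether that miR came from erythroid cells was not tested. The log2 fold change of miR-144-3p was 1.03 (standard error 1.22), and its groups overlapped. Leukocyte miRs overlapped, with 26.2 to 55.4 CPM in OXI-EV, against 36.1 to 131 in GLY-EV, as did neural miRs, with 1.38 to 137.9 CPM in OXI-EV, against 2.08 to 6.50 in GLY-EV, and the liver miR, with 1.15 to 7.71 CPM in OXI-EV, against 1.95 to 4.44 in GLY-EV. The muscle miRs, which mark the labelled tissue, were far above all of these, at 51953 to 84334 CPM in OXI-EV, against 64679 to 122047 in GLY-EV. This sum pools miRs that differed in direction. Of the muscle miRs named here, the paper reports miR-206 as higher in OXI-EV and the rest as lower. Here they were compared only with mmu-miR-101a-3p, whose own log2 fold change was -2.13. The log2 ratio to mmu-miR-101a-3p, OXI-EV minus GLY-EV, was 4.68 for miR-206-3p. It was 0.48 for miR-1a-3p, -0.48 for miR-133a-3p and -0.31 for miR-133b-3p. The 0.48 of miR-1a-3p thus means a smaller fall than that of mmu-miR-101a-3p, not a rise in OXI-EV. No miR of these lists was at 0 in all libraries of a group. The part of other cell types in the levels of the miR-101 family was not tested.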

How the data were processed

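Small RNA libraries (QIAseq miRNA kit, with unique molecular identifiers) were sequenced from 4 OXI-EV and 4 GLY-EV preparations, not pooled. The deposited table holds the authors' raw counts per miR and piRNA, which are whole numbers. The submitters' notes name cutadapt, STAR and GRCm38, with no version and no counting tool given in the sources used here. The authors' own fold changes and p-values in the same table were not used.

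The miR counts were fitted with edgeR 4.0.16 (quasi-likelihood test, R 4.3.3), with mapped reads as library size, for miRs that reached 10 counts in 4 or more libraries, and Benjamini-Hochberg adjustment over all of them at 0.05. Standard errors are the log2 fold change over the square root of the test statistic. A count of 0.5 was added for likeness and of 1 for arm ratios across hairpins. The fit was tested on simulated data. Alternatives were TMM, total miR counts, DESeq2 1.42.0, other filters, blocks and leaving out each library.

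The members and lists were chosen with earlier results of these data known. The rule named the members, the 5 abundant miRs outside the family whose ratio to miR-101a-3p varied least, any miR sharing a seed at bases 2 to 8 (none was found), miR-144-3p and the 3 most abundant of the Ezh2 list. miR-582-5p and the liver marker miR-122-5p were named after the values were seen. p-values measure the spread between these libraries, whose animals the labels do not number.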

Additional observations from a re-analysis of the deposited data

Results flagged for a closer look

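Among 18 groups of 4 values checked for a value far from the others, 3 held one, where chance gives about 1 in 20 independent groups. The 18 were not independent, since levels and ratios were built from the same counts, so their number cannot show an excess. All 3 flagged values were in OXI-EV. The level of mmu-miR-101c in OXI-EV replicate 1 was 5.98 CPM, and its gap to the next value was 0.917 of the range of the group. The ratio of mmu-miR-101b-3p to mmu-miR-101a-3p in OXI-EV replicate 3 was 0.686, with a gap of 0.849 of the range. The ratio of mmu-miR-101c to mmu-miR-101a-3p in OXI-EV replicate 4 was 0.200, with a gap of 0.893 of the range, although its exact binomial interval held the pooled share.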

How the results depend on the processing

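Of all miRs tested, 29 passed the threshold when scaled to mapped reads, against 86 with TMM, 86 with DESeq2's size factors, 236 with total miR counts as library size, 71 with DESeq2's test and 64 among miRs with a mean count of at least 100. Of the members, 2 were past it, and 3, all lower in OXI-EV, with each of these settings but total miR counts. That scale gave 4, since mmu-miR-101b-5p was also past it, higher in OXI-EV. Leaving out each library in turn, with the same miRs tested, gave 10 to 29 miRs and 0 to 2 members. Dropping OXI-EV replicates 1, 2 and 3 and GLY-EV replicates 1 and 2 took the number of miRs to 16, 11, 10, 18 and 15 in that order. Over all 8 fits without 1 library, the log2 fold change ran from -2.29 to -1.81 for mmu-miR-101a-3p and from -2.40 to -1.86 for mmu-miR-101b-3p. For mmu-miR-101c it ran from -2.21 to -1.64. No member changed direction in any setting run. A replicate block gave 42 miRs and 2 members past the threshold. Whether equal numbers came from the same mouse is not given in the labels, and no pairing was used. The correlations of deviations were 0.177, -0.219, -0.197 and 0.0801 for replicates 1 to 4, and 0.177, -0.197 and 0.0801 for the preparation numbers 1, 4 and 5 that both groups hold. A preparation block gave 32 miRs and 2 members. The 5p arms, with 6 to 68 counts, are limited by depth.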
